A study of Mus musculus with 6 samples.

Results

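The Zic genes *Zic1*, *Zic2*, *Zic4* and *Zic5* encode zinc finger transcription factors of the dorsal neural tube, and their signals were followed in sorted mouse dorsal spinal cord cells over 3 embryonic stages. Members were taken by symbol: each gene was read from the transcript cluster (the group of probes that the array reports as 1 gene) whose platform annotation names that gene and no other. Each of the 4 genes had exactly 1 such cluster, among 14860 genes with a cluster of their own and 23332 clusters in all. A further 1 cluster that names *Zic4* together with another gene was not used.

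The study profiled RNA of GFP+ cells that flow sorting had taken from the dissected dorsal cords of embryos carrying *Wnt1-cre* and *Rosa26mTmG*, at embryonic stages E10.5 and E11.5 and at E12.5. The 6 arrays (GeneChip Mouse Exon 1.0 ST, Affymetrix) hold 2 samples of each stage, numbered replicate 1 and replicate 2, and every group carried both alleles and no treatment. In these embryos Cre under *Wnt1* control switches a membrane reporter to GFP for good, so the sort takes cells by lineage, which in the trunk is the dorsalmost neural tube and the neural crest that leaves it. Whether the 2 samples of a stage were separate litters or pools is not in the labels, so p-values here measure only a spread between samples that may be technical.

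Zic proteins carry a row of C2H2 zinc fingers related to those of the Gli proteins, the transcriptional effectors of hedgehog signalling, and act as both DNA-binding factors and cofactors. In the neural tube Zic genes are known for dorsal expression, opposite to the ventral source of hedgehog, and for parts in progenitor proliferation, neural tube closure and the formation of neural crest. *Zic1* marks dorsal progenitors and some of their neurons, *Zic2* is the Zic gene of human holoprosencephaly and directs axons at the midline, *Zic4* lies beside *Zic1* and is lost together with it in some human Dandy-Walker malformations, and *Zic5* lies beside *Zic2* and is needed in mice for neural crest and neural tube closure.

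The 4 genes sit in the genome as 2 pairs. *Zic1* and *Zic4* lie on chromosome 9 and *Zic2* and *Zic5* on chromosome 14, with 0 annotated protein coding genes between the partners of either pair. The promoter starts of *Zic1* and *Zic4* used here were 3204 bases apart on opposite strands. The annotated extents of *Zic1* and *Zic4* overlap, so these starts need not be the only ones of the 2 genes. Their 250 bases before the start are shown because the signals of these neighbours are set against each other (RefSeq, GRCm38.p6; 5′ to 3′ on the strand of each gene, with matches to the GC box letters GGGCGG in capitals).
Zic1 (chr9:91365769-91366018, minus strand): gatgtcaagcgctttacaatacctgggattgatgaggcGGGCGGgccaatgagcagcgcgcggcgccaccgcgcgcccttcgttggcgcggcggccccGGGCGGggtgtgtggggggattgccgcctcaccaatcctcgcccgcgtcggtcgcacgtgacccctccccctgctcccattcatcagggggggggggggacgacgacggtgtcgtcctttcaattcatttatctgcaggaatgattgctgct
Zic4 (chr9:91368722-91368971, plus strand): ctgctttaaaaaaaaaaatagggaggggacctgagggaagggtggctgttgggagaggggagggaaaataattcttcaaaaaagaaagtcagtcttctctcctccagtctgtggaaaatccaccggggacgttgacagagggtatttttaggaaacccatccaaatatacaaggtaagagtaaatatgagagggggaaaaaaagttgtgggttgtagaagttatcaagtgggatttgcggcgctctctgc
The *Zic1* stretch was 66% G or C and held 2 GC boxes, which begin 212 and 152 bases before the start used here. The *Zic4* stretch was 44.4% G or C and held no GC box. The median over all promoter windows of the same length was 52.4%, and 32.7% of the 32851 windows held a GC box on either strand. The matching stretch of *Zic5* was 62.4% G or C and held no GC box either. None of these 3 stretches held the GLI and ZIC site TGGGTGGTC, which 0.225% of all windows held, the TCF and LEF forms CTTTGAT and CTTTGAA, held by 3.21% and 4.46%, or the TATA box TATAAA, held by 12.4%. Both strands were searched, and the motifs do not overlap one another in these stretches. A match of letters is a description of the sequence, and its absence says only that these letters are not in this window. *Zic2* had no entry in the promoter table.

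Signals are log2 values, so a difference of 1 is a doubling. Values were judged against 841 background clusters, those of olfactory, vomeronasal, taste and trace amine receptor genes that spinal cord cells are not known to use. A gene was called above background on an array when it exceeded the 95th percentile of those clusters there. That percentile was 6.18 to 6.59 on the replicate 1 arrays, but 5.38 to 5.40 on the replicate 2 arrays. The replicate 1 arrays thus had the higher background at every stage, and E10.5 replicate 1 stood apart, its mean correlation with the rest being 0.890, where every other array had 0.948 to 0.955. The dI1 neuron factors *Lhx2* and *Lhx9* and the dorsal factor *Pax3* were above background on all 6 arrays. *Wnt1*, whose regulatory sequence drives the Cre, exceeded background on 2 of the 6 arrays, with 5.97 on E10.5 replicate 2 and 6.201 on E11.5 replicate 2. Its six-array mean of 5.58 lay below the detection limit of 5.85 (the 95th percentile of the background clusters' six-array means). That limit was passed by 13 of 18 dorsal progenitor factors and 9 of 17 dorsal neuron factors. Of roof plate and dorsal signal genes 3 of 10 passed it.

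*Zic1* had the clearest signal of the family and the highest values at the latest stage. Its log2 signal was 7.72 and 7.56 in the E10.5 arrays, 7.84 and 8.17 in the E11.5 arrays and 8.15 and 8.27 in the E12.5 arrays (replicate 1 and replicate 2 of each stage). Both arrays of E11.5 and both of E12.5 lay above both of E10.5, whereas the values of E12.5 and E11.5 overlapped. All 6 values exceeded the background of their own array. The mean was 7.64 ± 0.11 for E10.5, 8.001 ± 0.23 for E11.5 and 8.21 ± 0.09 for E12.5 (SD, n = 2 each), so the means stood in the order of the stages. In RNA of sorted cells in bulk, more cells of a type and more RNA per cell cannot be told apart.

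*Zic1* was 0.57 higher in mean at E12.5 than at E10.5 (SE 0.30, 95% interval -0.13 to 1.27), a ratio of 1.49. It did not pass the test across all clusters (limma, adjusted p = 0.991). Replicate 1 alone gave 0.43 and replicate 2 alone 0.71, so it had the same direction on either side of the background gap. It lay at percentile 93.1 of the differences of all genes with a cluster of their own, whose median was -0.09. Between E11.5 and E10.5 *Zic1* differed by 0.36 (95% interval -0.34 to 1.07, limma adjusted p = 0.9999), and between E12.5 and E11.5 by 0.21 (95% interval -0.50 to 0.91, limma adjusted p = 1). Neither neighbouring pair of stages therefore differed beyond its error, and leaving out an E11.5 array moved these steps to between 0.20 and 0.53 for E11.5 minus E10.5 and between 0.043 and 0.37 for E12.5 minus E11.5. The median over all clusters was -0.10 for E12.5 minus E10.5 as deposited and 0.03 after each array was centred on its median, and the *Zic1* difference was 0.70 on that centred scale. Across rescaled values and left-out arrays the difference ranged from 0.45 to 0.70. It passed in 0 of 17 alternatives, with adjusted p between 0.361 and 0.99999.

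The calls over all clusters give the background for these values. In limma with Benjamini-Hochberg adjustment 0% of the 23332 clusters passed for E12.5 against E10.5, 0% for E11.5 against E10.5 and 0% for E12.5 against E11.5, while 928, 465 and 212 clusters had an unadjusted p under 0.05. For E12.5 against E10.5, both E12.5 arrays lay above both E10.5 arrays in 9.35% of clusters, and *Zic1* was the 1 member of 4 among them. For E11.5 against E10.5 that share was 9.48%, with *Zic1* again the 1 member. For E12.5 against E11.5 it was 8.46%, and the 1 member there was *Zic4*.

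**Figure D1:**
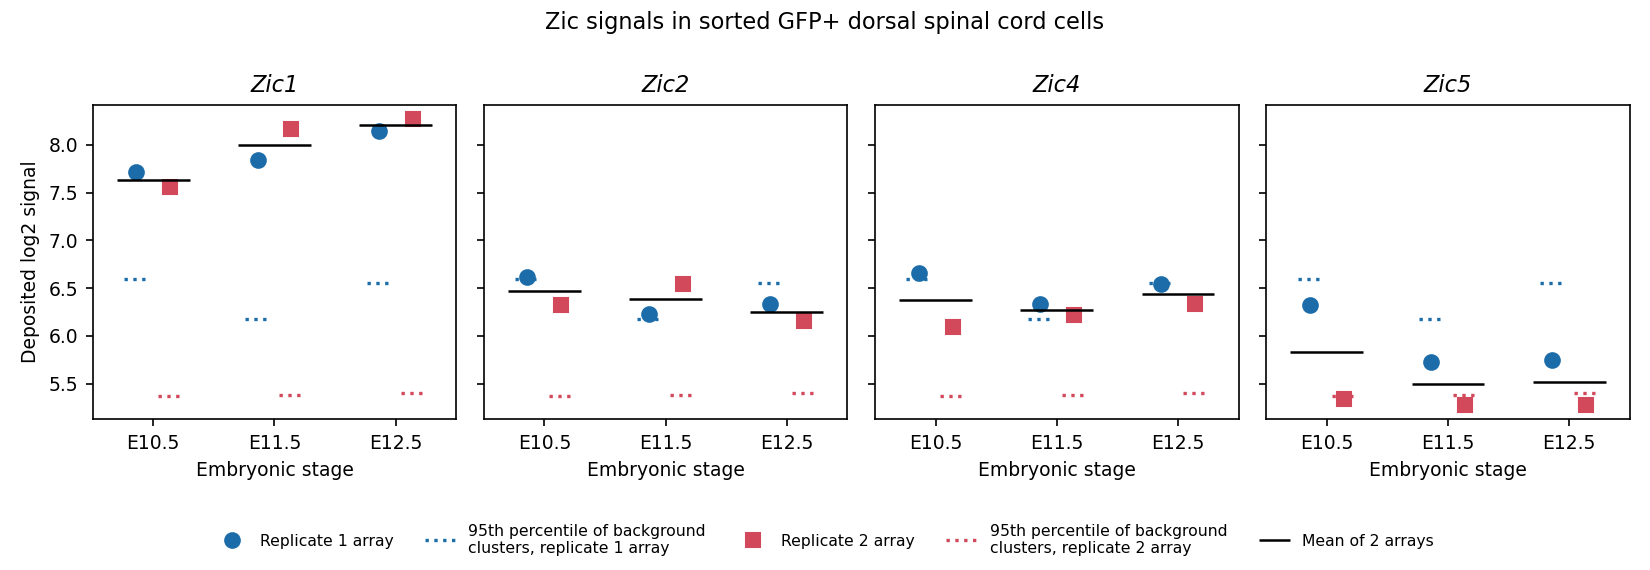
Deposited log2 signal (y axis) of each Zic gene by embryonic stage (x axis), with a circle for the replicate 1 array, a square for the replicate 2 array, a black bar for their mean and dotted bars for the 95th percentile of background clusters on the same array. Zic1 lies above the background of every array, with both E12.5 values (8.15 and 8.27) over both E10.5 values (7.72 and 7.56), whereas all 6 Zic5 values lie below it.

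*Zic2* had its lowest mean at E12.5, with stages that overlapped throughout. Its log2 signal was 6.62 and 6.32 in the E10.5 arrays, 6.22 and 6.54 in the E11.5 arrays and 6.33 and 6.16 in the E12.5 arrays. Of these values 5 exceeded the background of their array and the one on E12.5 replicate 1 did not. The mean was 6.47 ± 0.21 for E10.5, 6.38 ± 0.23 for E11.5 and 6.25 ± 0.12 for E12.5 (SD, n = 2 each).

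For *Zic2*, E12.5 minus E10.5 was -0.22 (SE 0.31, 95% interval -0.95 to 0.50, limma adjusted p = 0.991). Replicate 1 alone gave -0.29 and replicate 2 alone -0.16, and the value was -0.076 without E10.5 replicate 1 and -0.37 without E10.5 replicate 2. At percentile 31.2 of all genes it lay on the lower side of a distribution that is itself centred just under 0. Between E11.5 and E10.5 the difference was -0.09 (limma adjusted p = 0.9999), with -0.40 from replicate 1 and 0.22 from replicate 2. Between E12.5 and E11.5 it was -0.14 (limma adjusted p = 1), with 0.11 and -0.39 in the same order. No neighbouring stages of *Zic2* differed beyond their spread, and the direction of the steps depended on which arrays were set against each other. The interval leaves room for a lower signal at E12.5 and for a higher one, and these arrays cannot tell either from no difference.

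*Zic4*, the chromosomal neighbour of *Zic1*, showed no stage order. Its log2 signal was 6.65 and 6.09 in the E10.5 arrays, 6.34 and 6.22 in the E11.5 arrays and 6.55 and 6.34 in the E12.5 arrays. The E10.5 arrays held both the highest and the lowest of the 6 values, so E10.5 overlapped both other stages. Both E12.5 values lay just above both E11.5 values. On E12.5 replicate 1 the value did not exceed the background of the array, and on the other 5 arrays it did. The mean was 6.37 ± 0.40 for E10.5, 6.28 ± 0.08 for E11.5 and 6.44 ± 0.15 for E12.5 (SD, n = 2 each).

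The *Zic4* difference was 0.07 between E12.5 and E10.5 (SE 0.32, 95% interval -0.70 to 0.83, limma adjusted p = 0.991). Replicate 1 alone gave -0.11 and replicate 2 alone 0.24. Its direction turned to -0.21 without E10.5 replicate 2 and to -0.04 without E12.5 replicate 1. Between E11.5 and E10.5 *Zic4* differed by -0.10 (limma adjusted p = 0.9999), and between E12.5 and E11.5 by 0.17 (95% interval -0.60 to 0.93, limma adjusted p = 1). Its 3 stages thus did not differ beyond the spread between arrays.

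*Zic5* could not be told from background at any stage. Its log2 signal was 6.32 and 5.34 in the E10.5 arrays, 5.72 and 5.28 in the E11.5 arrays and 5.75 and 5.28 in the E12.5 arrays. All 6 values lay below the background of their own array, and the six-array mean of 5.61 lay below the detection limit. The mean was 5.83 ± 0.69 for E10.5, 5.499 ± 0.32 for E11.5 and 5.51 ± 0.33 for E12.5 (SD, n = 2 each). Within every stage the replicate 1 value was the higher, as was the background of that array.

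Between E12.5 and E10.5 *Zic5* differed by -0.32 (SE 0.42, 95% interval -1.31 to 0.68, limma adjusted p = 0.991), with -0.57 from replicate 1 and -0.06 from replicate 2. Without E10.5 replicate 1 the difference was 0.17. Between E11.5 and E10.5 it was -0.33 (limma adjusted p = 0.9999), and 0.16 without the same array. Between E12.5 and E11.5 it was 0.01 (limma adjusted p = 1). The part of the background of E10.5 replicate 1 in these values was not tested.

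Set side by side, the members stood on both sides of 0. For E12.5 minus E10.5 the log2 differences ran 0.57 for *Zic1*, 0.07 for *Zic4*, -0.22 for *Zic2* and -0.32 for *Zic5*. The differences between members were compared directly: in each array the log2 signal of 1 gene was subtracted from that of another, which removes any shift common to an array, and the E12.5 minus E10.5 difference of that quantity was tested by an exact two-sided permutation test over the arrays. There are 90 arrangements of the 6 arrays, so the smallest p the test can give is 0.0222, and p-values were adjusted over the 6 pairs. A log2 difference between 2 probe sets has no meaning as a level, since probes differ in brightness, so each is given relative to its own six-array mean.

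*Zic1* and *Zic2* stood apart most evenly over the stages. *Zic1* minus *Zic2* was -0.49 and -0.34 in the E10.5 arrays, 0.03 and 0.04 in the E11.5 arrays and 0.23 and 0.53 in the E12.5 arrays, so that no 2 stages overlapped. The E12.5 minus E10.5 difference was 0.80 greater for *Zic1* than for *Zic2*, with 0.72 among the replicate 1 arrays and 0.87 among the replicate 2 arrays. Its exact permutation p was 0.0222, the smallest the design allows. After adjustment over the 6 pairs it was 0.133, which does not pass, as no pair alone at the smallest p can. When 1 array was left out the value ranged from 0.65 to 0.94.

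Between the chromosome 9 neighbours, *Zic1* minus *Zic4* was -0.53 and -0.12 in the E10.5 arrays, -0.08 and 0.36 in the E11.5 arrays and 0.02 and 0.35 in the E12.5 arrays. Both E12.5 values lay above both E10.5 values, and the E12.5 minus E10.5 difference was 0.50 greater for *Zic1* (exact permutation p = 0.111, adjusted p = 0.233), with 0.54 among the replicate 1 arrays and 0.46 among the replicate 2 arrays. Without E10.5 replicate 1 it was 0.30, and without E10.5 replicate 2 it was 0.71. Between the chromosome 14 neighbours, *Zic2* minus *Zic5* was -0.45 and 0.23 in the E10.5 arrays, -0.25 and 0.52 in the E11.5 arrays and -0.17 and 0.13 in the E12.5 arrays. These values followed the replicate number rather than the stage, and the E12.5 minus E10.5 differences were 0.09 apart (exact permutation p = 0.778, adjusted p = 0.778), with 0.29 and -0.10 among the replicate 1 and replicate 2 arrays.

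In the other 3 pairs the stage difference was 0.89 greater for *Zic1* than for *Zic5* (exact permutation p = 0.133, adjusted p = 0.233), 0.39 greater for *Zic4* than for *Zic5* (exact permutation p = 0.156, adjusted p = 0.233), and apart by -0.29 for *Zic2* minus *Zic4* (exact permutation p = 0.222, adjusted p = 0.267). Of the 6 pairs 0 passed the test after adjustment, and 1 reached the smallest p before it. That pair could not pass, since a pair alone at the smallest p comes to 0.133 after adjustment. E12.5 and E10.5 did not overlap in 5 of the 6 pairs, *Zic2* and *Zic5* being the exception. The pairs share genes, so they do not count separately, and no share over other gene pairs was computed to set beside this. Leaving out 1 array gave 0.47 to 1.30 for *Zic1* and *Zic5*, 0.18 to 0.60 for *Zic4* and *Zic5*, and -0.43 to -0.16 for *Zic2* and *Zic4*. The pairs with *Zic5* rest on a gene at background.

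**Figure D2:**
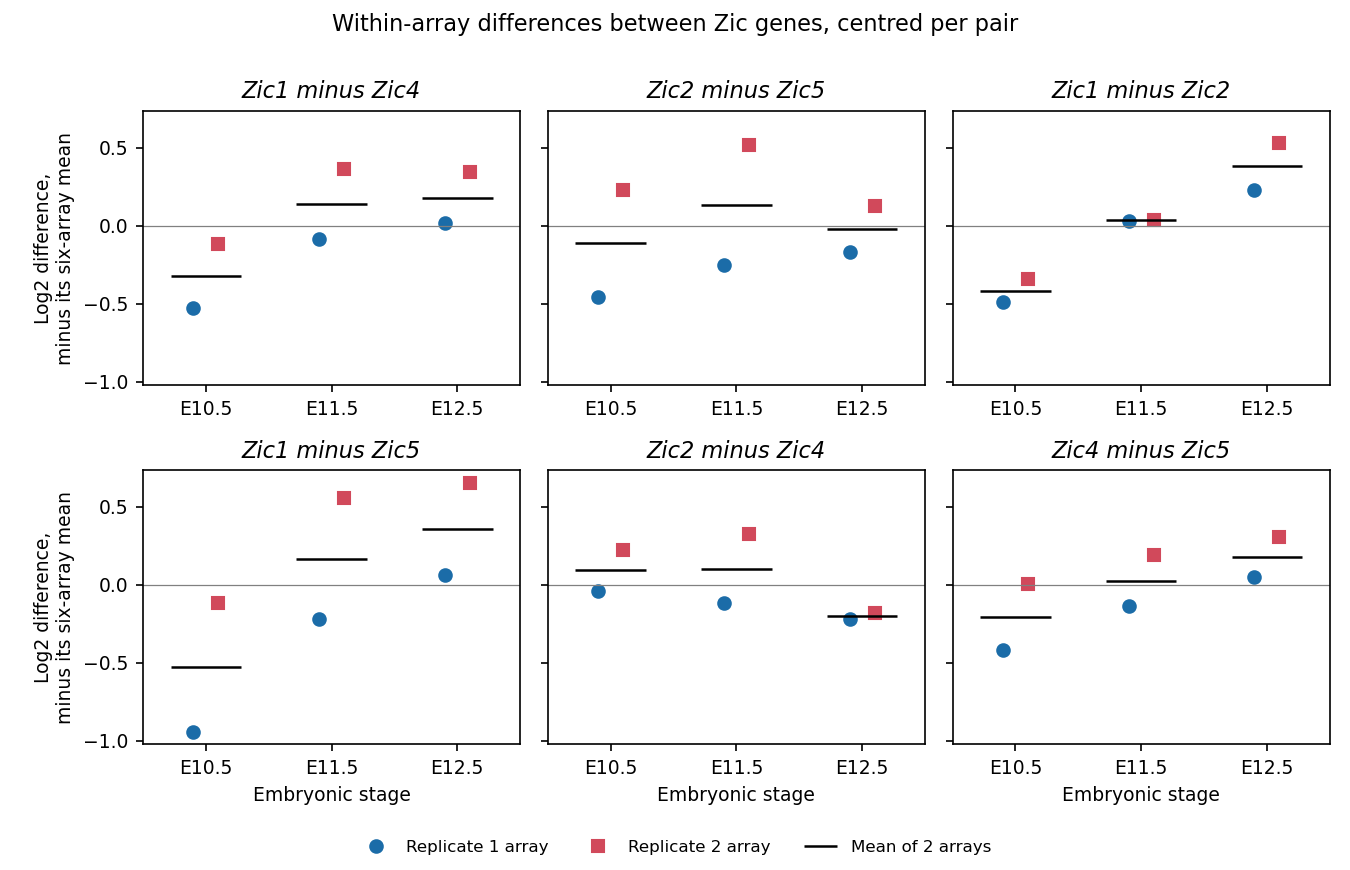
Log2 signal of the first gene minus that of the second on the same array, centred on the six-array mean of that pair (y axis), by embryonic stage (x axis), with a circle for replicate 1, a square for replicate 2 and a black bar for their mean. Zic1 minus Zic2 separates the 3 stages, with 0.23 and 0.53 at E12.5 against -0.49 and -0.34 at E10.5, while Zic2 minus Zic5 separates the replicate numbers.

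Profiles over the 6 arrays were also compared gene by gene. Each signal was centred on its six-array mean, and 2 genes were compared by the root mean square of their differences over the 6 arrays, in log2 units, where 0 is an identical profile. Within the family the nearest profiles were those of *Zic2* and *Zic4*, at 0.20, and of *Zic4* and *Zic5*, at 0.23. *Zic1* lay 0.30 from *Zic4*, 0.34 from *Zic2* and 0.53 from *Zic5*, and *Zic2* and *Zic5* lay 0.33 apart. Neither chromosomal pair was thus the closest pair by this measure. The measure does not separate stage from replicate number, and the distances to *Zic5* rest on a gene at background.

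Among 6668 genes above the detection limit, those nearest to *Zic1* were *Sh3rf1*, a ubiquitin ligase and scaffold of JNK signalling, at 0.046, the zinc finger gene *Zfp316* at 0.054 and the ADP-ribosyltransferase gene *Parp11* at 0.064. Their E12.5 minus E10.5 differences were 0.55, 0.59 and 0.58, close to the 0.57 of *Zic1*, as the choice by likeness makes them. The median distance of all candidates to *Zic1* was 0.37. *Sh3rf1* measured 6.47 and 6.45 in the E10.5 arrays, 6.68 and 6.93 in the E11.5 arrays and 6.98 and 7.05 in the E12.5 arrays.

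For *Zic2* the nearest genes were *Ccdc93* at 0.040, the ATP synthase assembly factor *Tmem70* at 0.041 and the sulfate transporter *Slc26a2* at 0.053, against a median of 0.34. For *Zic4* they were the endocytic adaptor gene *Necap2* at 0.030, the calcium pump *Atp2b2* at 0.035 and the secretory pathway GTPase *Rab2a* at 0.036, against a median of 0.38. For *Zic5* they were the sodium pump regulator *Fxyd7* at 0.021, the blood cell repressor *Gfi1b* at 0.032 and the homeobox gene *Hmx1* at 0.041, against a median of 0.54. *Gfi1b*, like *Zic5*, was higher on the replicate 1 array of every stage, with 6.61 and 5.58 in the E10.5 arrays, 6.01 and 5.60 in the E11.5 arrays and 6.01 and 5.60 in the E12.5 arrays. With 6 arrays such a ranking describes these arrays and nothing more.

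**Figure D3:**
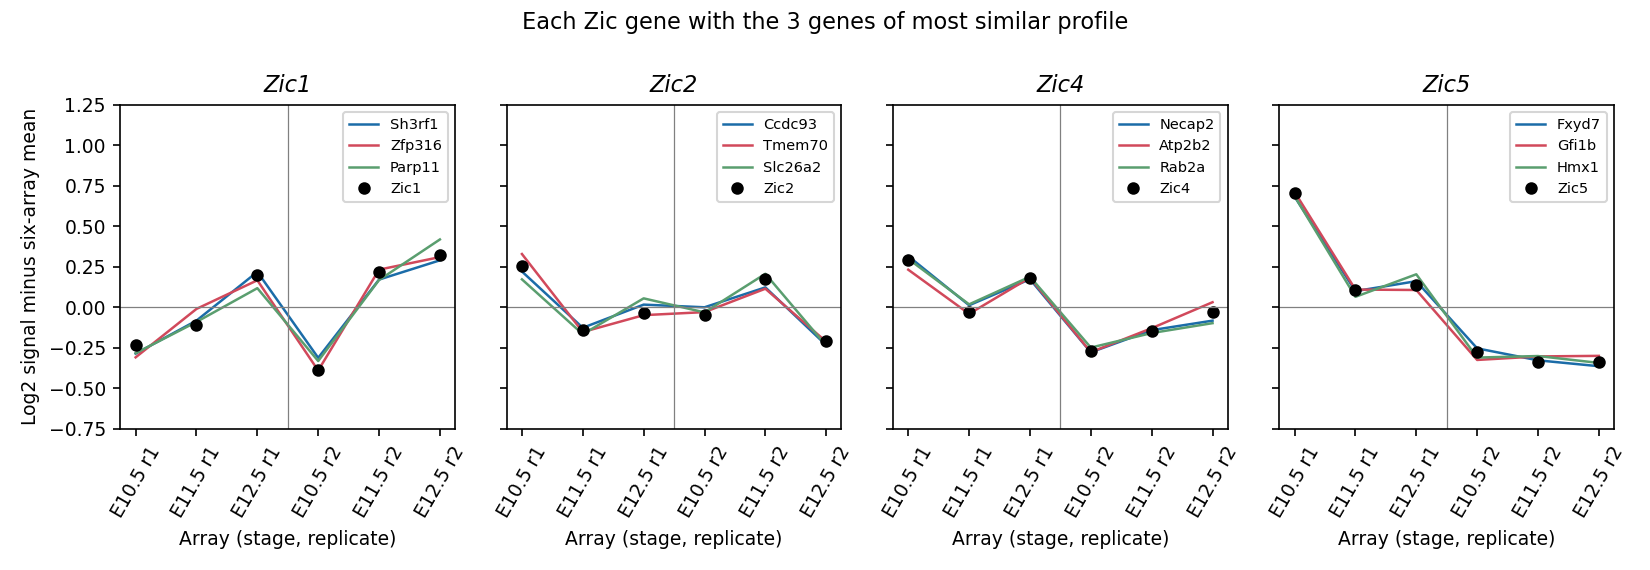
Log2 signal minus the six-array mean (y axis) for each Zic gene (black points) and its 3 nearest genes (lines) on the 6 arrays (x axis, replicate 1 arrays left of the grey line and replicate 2 arrays right of it). The Zic1 panel has its highest point at E12.5 and its lowest at E10.5 in each set of arrays, while the Zic5 panel is high on the replicate 1 arrays and flat on the replicate 2 arrays.

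The relatives of the Zic genes had lower means at the latest stage, on the other side of 0 from *Zic1*. Of 7 Gli and Glis genes, 5 were measured (*Gli1*, *Gli3*, *Glis1*, *Glis2* and *Glis3*) and 5 of 5 had an E12.5 mean under their E10.5 mean, with a median log2 difference of -0.30 and a range of -0.51 to -0.14. Of all genes with a cluster of their own 38.1% were above 0, with a median of -0.09. Of those above the detection limit 55.4% were above 0, with a median of 0.05. *Glis3*, a zinc finger factor of pancreas and thyroid, measured 5.54 and 5.74 at E12.5 against 6.28 and 6.03 at E10.5, a difference of -0.51 (limma adjusted p = 0.991). It was the 1 of 5 whose stages did not overlap, where 14% of all clusters had both E12.5 arrays below both E10.5 arrays. Its difference was -0.74 in replicate 1 and -0.28 in replicate 2. On every replicate 1 array *Glis3* and *Gli1* lay below background, and each exceeded it on 3 of the 6 arrays. *Gli3*, the hedgehog effector that serves mainly as a repressor, measured 7.53 and 7.93 at E12.5 against 7.43 and 8.30 at E10.5. The other 3 differed by -0.30 (*Gli1*), -0.21 (*Glis1*) and -0.33 (*Glis2*), and 0 of the 5 passed even an unadjusted p of 0.05. The list's median was -0.51 in replicate 1 and -0.15 in replicate 2.

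Genes tied to Zic function by earlier work (targets, partners and shared neural crest regulators) went both ways, with 8 of 9 measured, 3 above 0, 5 below 0 and a median of -0.26. Of all genes with a cluster of their own 38.1% were above 0. The list's median was -0.52 in replicate 1 and 0.06 in replicate 2. The detection limit was passed by 3 of the 8 genes. The axon guidance receptor *Ephb1*, which *Zic2* switches on in mouse retinal neurons, measured 5.90 and 6.23 at E12.5 against 5.61 and 4.83 at E10.5, a difference of 0.84 (limma adjusted p = 0.991; 0.29 in replicate 1 and 1.40 in replicate 2), with a mean under the detection limit. *Epha4*, the guidance receptor linked to *Zic2* in mouse dorsal horn, measured 8.16 and 8.22 at E12.5 against 6.69 and 8.16 at E10.5, a difference of 0.76 (limma adjusted p = 0.991) that was 1.47 in replicate 1 and 0.06 in replicate 2. *Pax3*, which works beside *Zic1* in neural crest induction in the frog, measured 8.75 and 9.13 at E12.5 against 8.17 and 8.73 at E10.5, a difference of 0.49 (limma adjusted p = 0.991). The remaining members were *Apoe* at -0.24, the Zic-binding regulators *Mdfi* and *Mdfic* at -0.29 and -0.31, and the crest factors *Foxd3* and *Snai2* at -0.37 and -0.42. Among these only *Mdfic* had a mean above the detection limit, and *Mdfi* exceeded background on 0 of the 6 arrays. In these 8 genes 0 passed an unadjusted p of 0.05.

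Around the Zic genes, markers of dorsal cell types included genes with larger differences than any Zic gene. At an unadjusted p under 0.05, 1.76% of all clusters were above E10.5 in E12.5 cells and 2.22% were below it, and 0 of the genes named next passed after adjustment (limma adjusted p = 0.990 or above). Of 18 dorsal progenitor factors 1 was higher and 1 lower by that measure: the dorsal neural tube homeobox gene *Msx3* differed by 1.06 and *Olig3*, which marks the dorsalmost progenitors, by -1.15. The list's median was -0.38, with 15 of 18 below 0, where 38.1% of all genes with a cluster of their own were above 0. Of 10 roof plate and dorsal signal genes 1 was lower, the R-spondin *Rspo3*, at -1.35, and the 1 gene above 0 was *Rspo2* at 0.0063. Of 17 dorsal neuron factors 2 were higher and 1 lower, with *Pax2*, a marker of inhibitory neurons, at 1.32 and the dI1 factor *Lhx9* at -0.72.

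Neuronal and cell cycle genes stood on opposite sides of 0 over the same span. All measured genes of both lists exceeded the detection limit, and of all genes above that limit 55.4% were above 0. Of 9 pan-neuronal genes 7 were above 0 and 3 were higher at the unadjusted threshold, with a median of 0.62. The RNA-binding protein gene *Elavl3* differed by 0.89 and the neurofilament *Nefm* by -0.68. Of 12 cell cycle genes 12 were below 0, with a median of -0.54, and the proliferation antigen *Mki67* differed by -1.05. The part of these differences in the Zic values was not tested. The cell cycle median was -0.24 in replicate 1 and -0.79 in replicate 2, whereas the pan-neuronal medians were 0.59 and 0.64.

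Markers of other cell types in the Wnt1 lineage or near the dissection were mostly below the detection limit. So were roof plate and dorsal signal genes, of which 3 of 10 passed it, while 9 of 17 dorsal neuron factors did. Of 7 measured neural crest and Schwann genes 3 exceeded the detection limit, with a median difference of -0.42, *Cdh6* at -1.25 and *Tfap2b* at 0.67 (0.17 in replicate 1 and 1.16 in replicate 2). The mean signal of the 7 genes ran between 5.83 and 6.47 over the arrays. The 3 of them above the limit exceeded background on all 6 arrays. The detection limit was passed by 2 of 15 mesenchyme and meninges genes, 0 of 6 skeletal muscle genes, 1 of 12 floor plate and ventral genes, 2 of 8 dorsal root ganglion genes and 3 of 10 blood, endothelium and macrophage genes. Their median differences ran between -0.38 and -0.11. The genes with the lowest p in each direction were *Postn* (-2.92) and *Pdgfra* (0.31), *Mstn* (-2.62) and *Acta1* (0.0058), *Mnx1* (-0.70) and *Slc18a3* (0.43), *Prph* (-0.50) and *Ntrk2* (0.94), and *Cx3cr1* (-1.0003) and *Alas2* (0.28). The lower ones were uneven between replicate 1 and replicate 2, with -1.36 and -4.48 for *Postn*, -1.19 and -4.05 for *Mstn*, -1.21 and -0.18 for *Mnx1*, -0.84 and -0.16 for *Prph* and -1.87 and -0.13 for *Cx3cr1*. The detection limit is set on six-array means. *Postn* and *Mstn* lay under it, yet had E10.5 means of 6.70 and 6.91 and exceeded background on 1 of the 6 arrays each. The part of these other cell types in the Zic values was not tested.

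**Figure D4:**
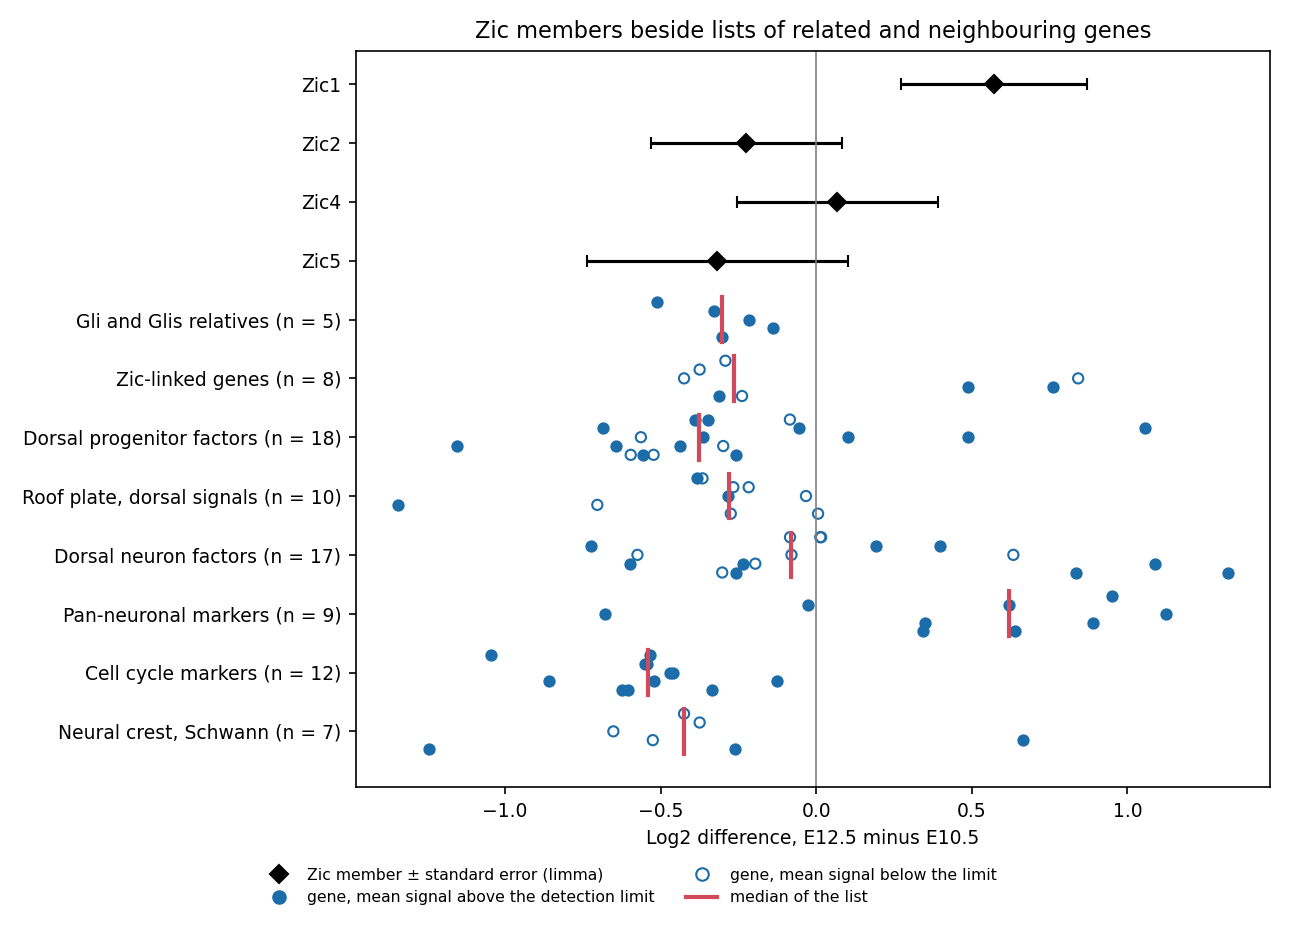
Log2 difference, E12.5 minus E10.5 (x axis), of the 4 Zic genes (diamonds, with the standard error from limma) and of the genes of 8 lists (filled circles above the detection limit, open circles below it, red bar for the list's median). Zic1 lies at 0.57 and Zic5 at -0.32, the pan-neuronal median is 0.62, and the Gli and Glis genes all lie below 0.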

How the data were processed

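RNA of GFP+ cells from 6 samples was hybridised to Affymetrix GeneChip Mouse Exon 1.0 ST arrays. The authors deposited 1 normalized log2 signal per transcript cluster and array, made with oligo and mm9 per the submitters' processing notes; the normalization steps are not given in the sources used here, and scanner signals were not used, so only rescaling of the deposited log2 values was tried. Of 23332 clusters, 14996 name 1 gene, 1019 several, and 7317 are not in the platform table. Stages came from the labels. Differences were tested on all clusters in 1 fit (limma 3.58.1, R 4.3.3; lmFit and eBayes, stage only) with Benjamini-Hochberg adjustment and a threshold of 0.05. Pairs of members were tested by exact permutation over arrays. Figures used Python 3.11.15, pandas 2.3.3 and matplotlib 3.10.9. The fit was tested on simulated data with planted differences larger than any Zic difference and noise independent between arrays. That test does not bear on differences as small as those of the Zic genes.

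The text names the 4 members, every measured Gli, Glis and Zic-linked gene, in each other list the gene with the smallest p in each direction, and the 3 genes nearest to each member in profile. *Lhx2*, *Wnt1* and *Pax3* were named besides as checks of the sorted cells. Members and lists were chosen with earlier results of these data known. Alternatives were quantile normalization, centring, other variance priors, fits on fewer clusters or stages, the replicate number as a block, and leaving out each array. Precision is limited by the number of arrays.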

Additional observations from a re-analysis of the deposited data

How the results depend on the processing

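With 2 arrays a stage, only large and even differences could pass, and *Zic5* has no value once clusters under the detection limit are left out. No member has another cluster of its own, so that alternative could not be run. Settings that alter only the error (the block, other variance priors, fewer clusters or stages in the fit) leave a difference as it is, so only rescaling and left-out arrays could turn one. They turned 14 values of the member differences, 0 of them of *Zic1*, and 2 values of the pair comparisons, both of *Zic2* and *Zic5*. No member passed in any alternative. With the block or without an E11.5 array the smallest p of any pair was 0.0556 and 0.0667, so no pair could pass there. In the main test a pair alone at its smallest p could not pass either. With arrays centred on their median *Zic2* E11.5 minus E10.5 was 0.0036; centred on the background clusters, an alternative added after seeing the data, it was 0.059, *Zic4* E11.5 minus E10.5 was 0.049 and *Zic5* E12.5 minus E11.5 was -0.071.

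Leaving out 1 array gave, for E12.5 minus E10.5, -0.21 to 0.35 for *Zic4*, -0.81 to 0.17 for *Zic5* and -0.25 to 0.43 for the difference of *Zic2* against that of *Zic5*. For E11.5 minus E10.5 it gave -0.25 to 0.073 for *Zic2*, -0.38 to 0.18 for *Zic4*, -0.82 to 0.16 for *Zic5* and 0.20 to 0.53 for *Zic1*, and for E12.5 minus E11.5 0.043 to 0.37 for *Zic1*, -0.30 to 0.022 for *Zic2* and -0.22 to 0.25 for *Zic5*. The number of clusters called ranged from 0 to 325 for E12.5 against E10.5 and from 0 to 250 for E11.5 against E10.5, in both with the highest count without E10.5 replicate 2; no Zic gene was among them. The cause was not tested.

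The replicate numbers are only shared numbers in the labels, though the replicate 1 minus replicate 2 differences of the stages correlated at 0.46, 0.47 and 0.48 over 23332 clusters. With the replicate number as a block, *Zic1* E12.5 minus E10.5 stayed at 0.57 (limma adjusted p = 0.556), 0 clusters were called in each comparison, and 2098, 1243 and 637 clusters had an unadjusted p under 0.05, against 928, 465 and 212 without it. For pairs, arrangements within replicate numbers gave an exact permutation p of 0.0556, their smallest, for *Zic1* and *Zic2*, *Zic1* and *Zic5*, and *Zic4* and *Zic5* alike (adjusted p = 0.111). With the block and only clusters that name 1 gene, added after seeing the data, 27 were called for E12.5 against E10.5, no Zic gene among them (*Zic1* limma adjusted p = 0.361).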
